A study of Mus musculus with 28 samples.

Results

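The expression of 10 glucocorticoid response genes was measured in the liver and kidney of mice given nicotinamide mononucleotide (NMN) or water. They are Fkbp5, Tsc22d3, Zbtb16, Dusp1, Klf9, Mt1, Mt2, Tat, Errfi1 and Sgk1, 10 of the 54446 genes counted in each library. The list was drawn up by name and found by symbol, with earlier results of these data known. Shares of the members set beside those of all genes are therefore not independent of these data. The study gavaged male C57BL/6 mice (C57BL6J in its methods), 8 weeks old, for 7 days with NMN, a precursor of the coenzyme NAD+, or with water, and sequenced polyA RNA of liver and kidney. On the once-daily schedule the dose was 1340 mg/kg/d, with 4 NMN mice and 4 water mice per organ. On the twice-daily schedule it was 2680 mg/kg/d, with 3 NMN mice and 3 water mice per organ. The 28 libraries held between 12688324 and 33872983 reads counted on genes. The schedules also differed in sequencing depth and other library properties, so the number of gavages, the cohort and the sequencing cannot be told apart when mice of the schedules are compared.

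Glucocorticoids such as corticosterone, the main one in mice, enter cells and bind the glucocorticoid receptor, which then moves to the nucleus and binds DNA at glucocorticoid response elements. In liver the hormone raises enzymes of amino acid breakdown and glucose production, and in kidney it acts beside aldosterone on salt handling. Several of the targets feed back on the pathway, and some also answer other signals such as metals, growth factors or fasting. Hormone levels were not analysed here, so the list is a set of known targets and not a measure of hormone.

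The labelled organs carried their markers. Alb, Apoa1, Ttr and Cps1, products of hepatocytes, summed to between 99000 and 223500 CPM (counts scaled to the size of each library) in the 14 livers. Lrp2, Slc34a1, Slc5a2 and Slc22a6 of the proximal tubule summed to between 4278 and 7822 CPM in the 14 kidneys. The receptor gene itself, Nr3c1, was present in both organs, at 93.8 ± 19.9 CPM in the livers and 68.4 ± 3.05 CPM in the kidneys of once-daily water mice (SD, n = 4). Hsd11b1, whose enzyme regenerates active corticosterone, averaged 883 ± 108 CPM in those livers and 76.6 ± 12.6 CPM in those kidneys, and Hsd11b2, whose enzyme inactivates it, averaged 0.254 ± 0.206 CPM and 133 ± 17.4 CPM (SD, n = 4). In organ tissue, fewer cells of a type and less RNA per cell cannot be told apart. The liver library of once-daily NMN mouse 4 stood apart from the other 7 once-daily livers, with 12.8% of its records outside annotated genes (4.91 to 7.44% in the others), 5.10% in more than 1 gene (3.09 to 3.59%) and the lowest hepatocyte marker sum. The median of the members and the results of Fkbp5, Zbtb16 and Sgk1 in once-daily livers are also given without it. The liver of once-daily water mouse 3 stood apart in acute phase genes, with 8718 CPM of Saa1, a serum amyloid gene, against 176 to 391 CPM in the other water mice, and 341 CPM of Lcn2, of lipocalin 2, against 13.9 to 35.5 CPM. The once-daily NMN livers had 1247, 567, 138 and 1582.5 CPM of Saa1 and 192, 66.9, 6.57 and 225 CPM of Lcn2.

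In water mice the 10 genes spanned a wide range of levels. Scaled per length (RPKM, the CPM divided by the exon length in kilobases), Tat stood highest in the livers of once-daily water mice at 993 ± 205 RPKM, followed by Errfi1 at 392 ± 33.5 RPKM (SD, n = 4), and these ranges did not overlap. Mt1 and Mt2 came next at 281 ± 246 and 104 ± 113 RPKM, with so much spread between mice that neither could be placed apart from its neighbours. Tsc22d3 averaged 64.8 ± 34.2 RPKM and Klf9 29.1 ± 4.65 RPKM, with overlapping ranges. The levels of Dusp1, Fkbp5 and Sgk1, at 10.8 ± 2.02, 7.35 ± 2.57 and 5.16 ± 2.004 RPKM, lay below that of Klf9, and the range of Fkbp5 overlapped with those of Dusp1 and Sgk1, which did not overlap with each other. Zbtb16 was lowest at 0.792 ± 0.251 RPKM, below every other member in every mouse.

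In the kidneys of once-daily water mice the order of levels per length was different. Errfi1 led at 111 ± 7.15 RPKM, followed by Mt1 at 42.4 ± 6.58 RPKM and Klf9 at 28.3 ± 3.69 RPKM, and these ranges did not overlap. Sgk1, Tsc22d3, Mt2 and Dusp1, between 17.3 ± 4.27 and 10.3 ± 5.12 RPKM on average, overlapped. Fkbp5 averaged 7.69 ± 1.61 RPKM, and Tat and Zbtb16 were lowest at 0.544 ± 0.0528 and 0.418 ± 0.279 RPKM (SD, n = 4). The plot of levels by mouse shows every library of each gene in CPM.

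**Figure D1:**
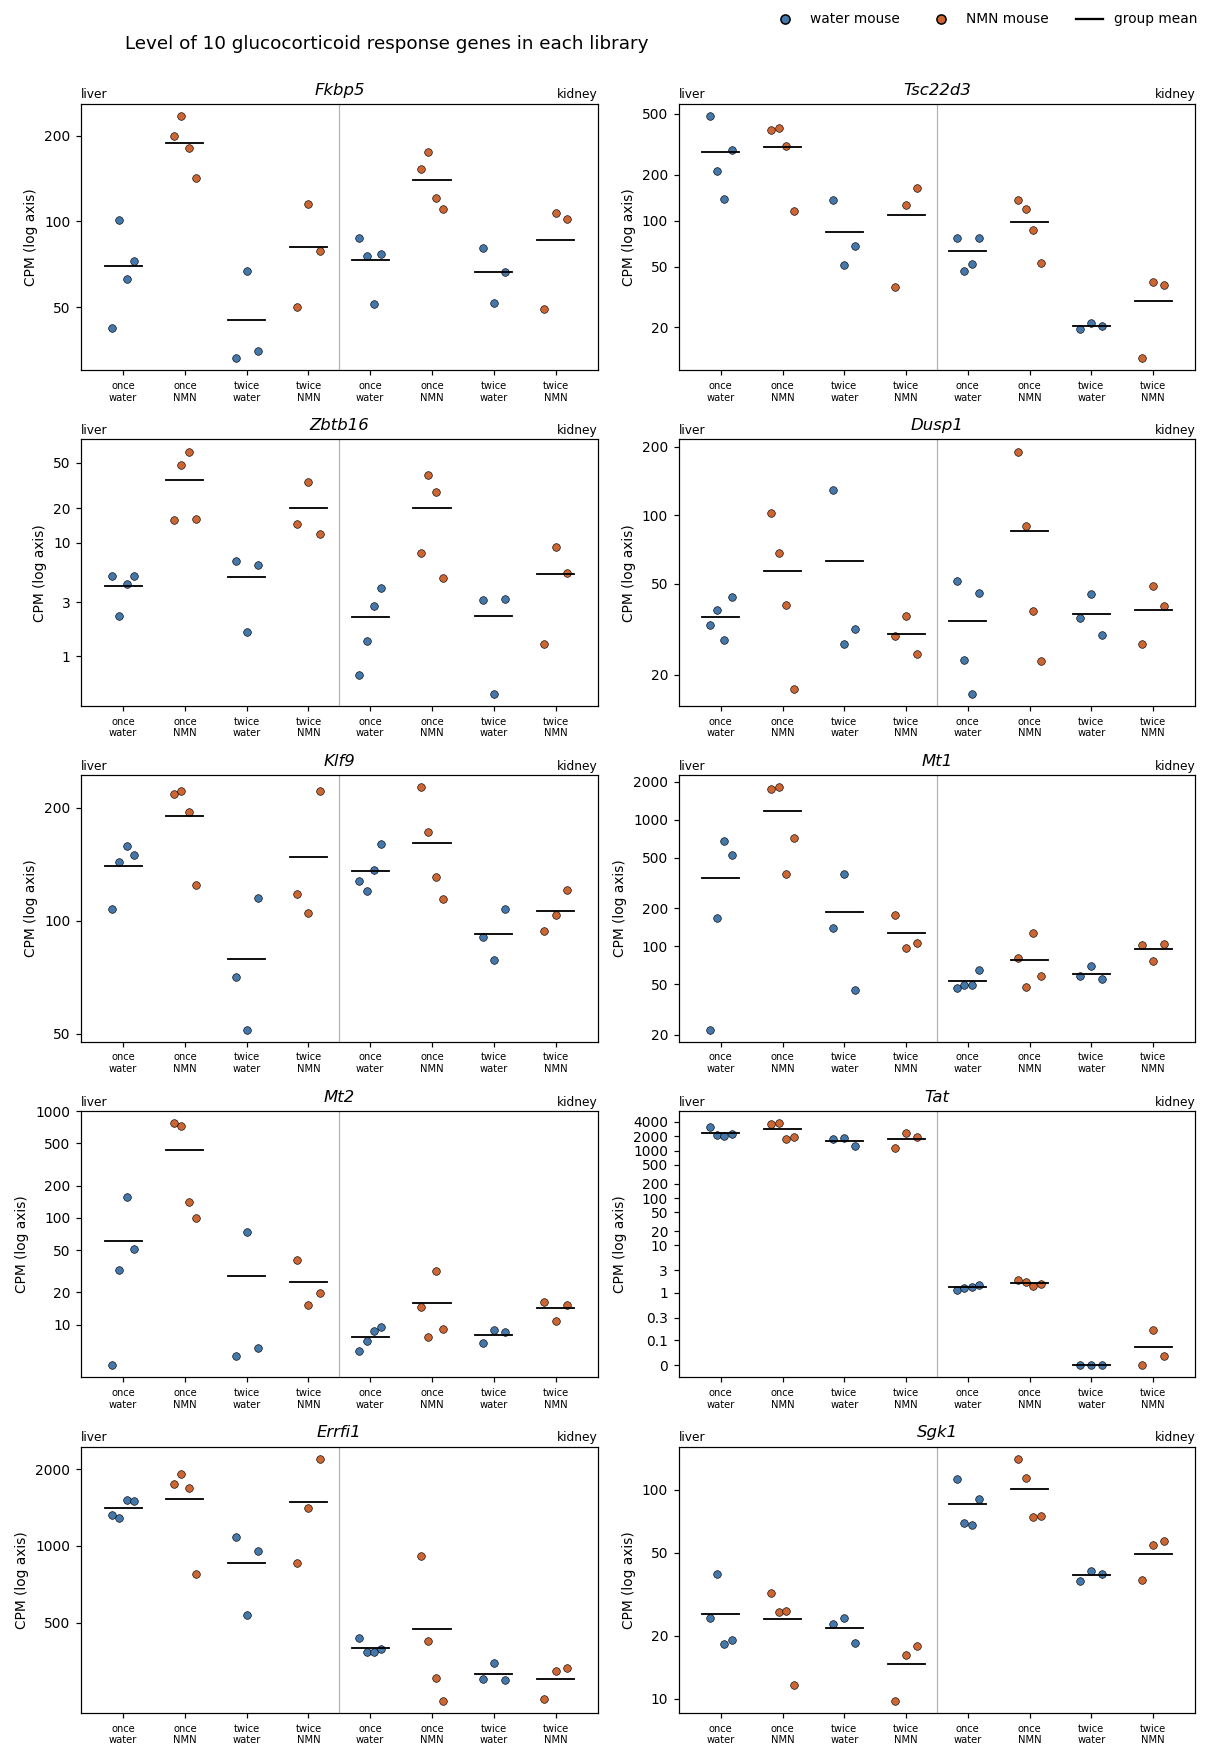
Level of each of the 10 genes in every library, in CPM on a log axis, by organ, schedule and treatment, with 1 point per mouse and values of 0 drawn at the tick marked 0. Tat lies between 1108 and 3791 CPM in the livers and at or below 1.89 CPM in the kidneys, whereas Sgk1 is higher in the kidneys of water mice than in their livers.

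The organs of once-daily water mice were first compared without pairing, and 66.9% of all tested genes were called. Of the members, 5 were higher in liver than in kidney and 1 was lower. Tsc22d3 was higher in liver by 2.13 on the log2 scale (SE 0.36, adjusted p = 0.000583), Errfi1 by 1.79 (SE 0.12, adjusted p = 1.29e-08), Mt1 by 2.70 (SE 0.94, adjusted p = 0.0396) and Mt2 by 2.96 (SE 0.96, adjusted p = 0.031), and Tat was near 0 in kidney. Sgk1 was lower in liver by a log2 difference of -1.77 (SE 0.25, adjusted p = 3.65e-05). In twice-daily water mice, where 70.5% of all genes were called, Tsc22d3 (2.01, SE 0.32, adjusted p = 0.00057) and Errfi1 (1.41, SE 0.22, adjusted p = 0.000272) were again higher in liver, with Tat, and Sgk1 lower (-0.86, SE 0.13, adjusted p = 0.00014). The median of all genes sat at -0.10 and -0.17 in these comparisons. With the liver and kidney libraries of the same number paired as a block, the once-daily differences were 2.02 for Mt1 (adjusted p = 0.183) and 2.28 for Mt2 (adjusted p = 0.079), no longer called, while Zbtb16 was called higher in liver on both schedules, by 1.03 (adjusted p = 0.0471) and 1.19 (adjusted p = 0.00902). Mt1 and Mt2 also lost their calls in 6 of the 8 fits without 1 library (adjusted p up to 0.0918 and 0.0753), all but those without liver 1 or liver 2. Fkbp5 was called lower in liver in twice-daily mice without the liver of water mouse 2 (-0.95, adjusted p = 0.00142) or the kidney of water mouse 2 (-0.74, adjusted p = 0.0421). Zbtb16 was called higher in liver without the kidney of once-daily water mouse 4 (1.34, adjusted p = 0.0273) or the liver of twice-daily water mouse 2 (1.55, adjusted p = 0.0363).

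NMN was then compared with water within each organ and schedule, the comparison the study was built on. None of the 10 genes passed an adjusted p of 0.05 in edgeR in any of the 4 comparisons, although most values were higher with NMN. In the livers of once-daily mice 9 of 10 were higher. Of the 10, 0 were called by edgeR against 0.0161% of all genes, 3 had an unadjusted p under 0.05 against 6.86%, and DESeq2 called 2 against 0.76% (of the genes it gave an adjusted p). In the livers of twice-daily mice 6 of 10 were higher, edgeR called 0 against 7.08% of all genes, 4 had an unadjusted p under 0.05 against 24.6%, and DESeq2 called 3 against 12.4%. In the kidneys of once-daily mice all 10 were higher, among them Tat, a trace of at most 1.89 CPM there. In these kidneys edgeR called 0 against 0.12% of all genes, 2 had an unadjusted p under 0.05 against 8.94%, and DESeq2 called 2 against 1.08%. In the kidneys of twice-daily mice 8 of the 9 tested were higher, edgeR called 0 against 0.4%, 3 had an unadjusted p under 0.05 against 11.1%, and DESeq2 called 2 against 1.59%. Tat was too low in those kidneys to be tested. The median log2 fold change of the members was 0.56, 0.28, 0.61 and 0.38 in this order, and that of all genes lay between -0.0027 and 0.0045. In the same order 49.5, 50.4, 50.3 and 50.8% of all genes were higher with NMN. Without the liver of once-daily NMN mouse 4 the median of the members in once-daily livers was 0.78, 1 member was called (Fkbp5), and Zbtb16 had 3.33 (adjusted p = 0.0503 in edgeR). Over the fits of once-daily livers that left out 1 library, edgeR called 0 to 18 of all genes.

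**Figure D2:**
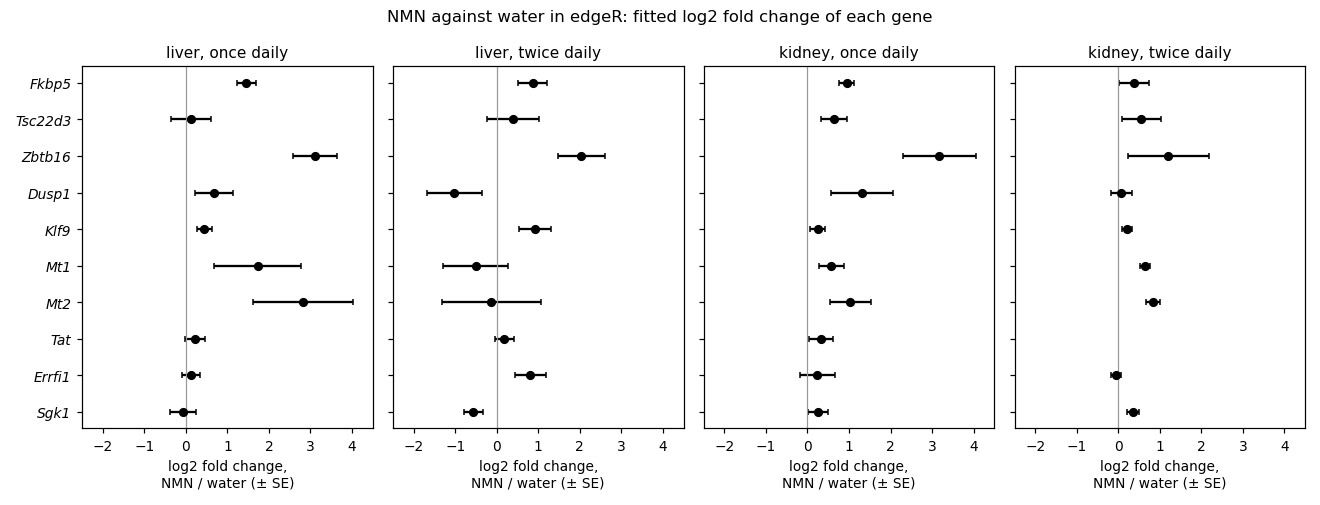
Log2 fold change of NMN against water for each gene, with bars of 1 SE, in 4 panels for organ and schedule. Zbtb16 has the highest value in all 4 panels (3.10, 2.04, 3.18 and 1.21), Fkbp5 is above 0 in all 4 (1.45, 0.87, 0.94 and 0.38), and Tat is missing from the panel of kidneys on the twice-daily schedule.

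A few genes separated the groups completely. In once-daily livers every NMN mouse was above every water mouse for Fkbp5 and Zbtb16, 2 of the 10, against 1.72% of all genes. The same 2 genes did so in once-daily kidneys, against 2.31% of all genes. In twice-daily livers only Zbtb16 did, 1 of the 10, against 13.1% of all genes, and every NMN mouse was below every water mouse for Sgk1, again 1 of the 10, against 16% of all genes. In twice-daily kidneys Mt1 and Mt2 did, 2 of 9, against 8.11% of all genes.

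Fkbp5 encodes a co-chaperone of Hsp90 that is induced by the receptor and lowers its affinity for hormone. In once-daily livers Fkbp5 was 42.1, 101, 62.9 and 72.7 CPM in water mice and 199, 234, 181 and 142 CPM in NMN mice. The lowest NMN mouse stood above the highest water mouse. The difference was 1.45 on the log2 scale (SE 0.23), or 2.74-fold, with an adjusted p of 0.0659 in edgeR and 3.03e-06 in DESeq2. Without water mouse 1 it was 1.28 and was called (adjusted p = 0.0386), and without NMN mouse 4 it was 1.55 and was called (adjusted p = 0.0391). In once-daily kidneys Fkbp5 was 87.5, 75.6, 51.4 and 76.8 CPM in water mice and 152, 175, 120.4 and 111 CPM in NMN mice. Again the groups did not overlap. That difference was 0.94 (SE 0.17, adjusted p = 0.0829), and it was called without water mouse 3 (0.82, adjusted p = 0.0479) or NMN mouse 4 (1.03, adjusted p = 0.0216).

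On the twice-daily schedule the Fkbp5 groups overlapped in both organs. In the livers Fkbp5 was 33.1, 67.1 and 34.9 CPM in water mice and 49.9, 115 and 78.6 CPM in NMN mice, a difference of 0.87 (SE 0.34, adjusted p = 0.166). The kidneys of water mice had 80.3, 51.7 and 66.3 CPM and those of NMN mice 49.3, 107 and 101.5 CPM. NMN mouse 1 was the lowest of these 6 kidneys, and the difference was 0.38 (SE 0.37, adjusted p = 0.767).

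Zbtb16, also known as Plzf, encodes a zinc finger repressor of transcription that glucocorticoids induce in several cell types. In once-daily livers Zbtb16 was 5.11, 2.27, 4.32 and 5.04 CPM in water mice and 15.7, 47.5, 62.8 and 16.1 CPM in NMN mice. Each NMN mouse was above each water mouse, and 2 of the 4 NMN mice were far above the other two. The difference was 3.10 (SE 0.53, adjusted p = 0.134 in edgeR and 5.94e-10 in DESeq2). In twice-daily livers Zbtb16 was 6.90, 1.65 and 6.32 CPM in water mice and 14.7, 34.1 and 11.9 CPM in NMN mice, again without overlap, a difference of 2.04 (SE 0.57, adjusted p = 0.0753).

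In once-daily kidneys Zbtb16 was 0.694, 1.36, 2.79 and 3.99 CPM in water mice and 8.12, 39.2, 27.9 and 4.92 CPM in NMN mice. The NMN libraries numbered 2 and 3 were the highest here, as they were in liver. The difference was 3.18 (SE 0.88, adjusted p = 0.385), with no overlap. In twice-daily kidneys Zbtb16 was 3.15, 0.470 and 3.18 CPM in water mice and 1.28, 9.18 and 5.37 CPM in NMN mice, and the groups overlapped because NMN mouse 1 lay among the water mice (1.21, SE 0.97, adjusted p = 0.723).

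Tsc22d3, also known as Gilz, encodes a leucine zipper protein that carries part of the anti-inflammatory action of glucocorticoids. In once-daily livers it was 484, 212, 139.5 and 289.6 CPM in water mice and 390.4, 403, 308 and 116 CPM in NMN mice, with full overlap (0.12, SE 0.48, adjusted p = 0.977). In twice-daily livers it was 135.6, 50.9 and 68.0 CPM in water mice and 37.0, 127 and 164.5 CPM in NMN mice, also overlapping (0.39, SE 0.63, adjusted p = 0.765). The sign turned in once-daily livers without water mouse 3 (-0.10) and NMN mouse 1 (-0.014) or 2 (-0.041), and in twice-daily livers without NMN mouse 3 (-0.036). In once-daily kidneys it was 76.7, 46.6, 51.8 and 77.4 CPM in water mice and 136, 119, 87.1 and 53.1 CPM in NMN mice (0.64, SE 0.32, adjusted p = 0.615). NMN mouse 4 was the one NMN kidney inside the range of water mice. In twice-daily kidneys the water mice lay close together at 19.5, 21.5 and 20.4 CPM and the NMN mice at 12.6, 39.6 and 37.7 CPM (0.56, SE 0.48, adjusted p = 0.739). Without NMN mouse 1, the low one, Tsc22d3 was called at 0.92 (adjusted p = 0.00035).

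Klf9 encodes a Krüppel-like transcription factor. In once-daily livers it was 108, 144, 159 and 150.3 CPM in water mice and 218, 222, 195 and 125 CPM in NMN mice, of which mouse 4 lay within the water range (0.45, SE 0.18, adjusted p = 0.656). In twice-daily livers it was 70.6, 51.3 and 115 CPM in water mice and 118, 105 and 222 CPM in NMN mice, overlapping in NMN mouse 2 (0.93, SE 0.39, adjusted p = 0.194). In the kidneys Klf9 ran from 78.4 to 161 CPM in water mice and from 93.9 to 227 CPM in NMN mice, with overlap on both schedules (0.24, SE 0.19, adjusted p = 0.762, and 0.21, SE 0.13, adjusted p = 0.577).

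Dusp1 encodes a phosphatase that switches off MAP kinases and answers growth factors and stress as well as glucocorticoids. In once-daily kidneys it was 51.5, 23.2, 16.5 and 45.6 CPM in water mice and 190.1, 89.9, 37.9 and 22.9 CPM in NMN mice. NMN mouse 1 stood at 190.1 CPM and NMN mice 3 and 4 inside the water range, and the coefficient of variation of these NMN mice was higher than that of 99.9% of genes. The difference was 1.31 (SE 0.76, adjusted p = 0.677). In once-daily livers Dusp1 was 33.0, 38.2, 28.3 and 43.8 CPM in water mice and 101.8, 68.1, 40.3 and 17.3 CPM in NMN mice (0.67, SE 0.46, adjusted p = 0.835), so that the NMN mice had the same order in both organs. In twice-daily livers water mouse 1 stood at 129 CPM and the other water mice at 27.1 and 31.8 CPM, against 29.6, 36.2 and 24.6 CPM in NMN mice (-1.02, SE 0.66, adjusted p = 0.409). Without water mouse 1 the difference turned to 0.042 (SE 0.22). In twice-daily kidneys all 6 mice lay between 27.2 and 48.8 CPM (0.07, SE 0.26, adjusted p = 0.945), and the sign turned without water mouse 3 (-0.055) or NMN mouse 2 (-0.13).

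Mt1 and Mt2 encode metallothioneins, small cysteine-rich proteins that bind zinc and copper, and are neighbours on chromosome 8. Both are induced by metals through the factor Mtf1, which binds metal response elements, and by glucocorticoids. Their promoters, from RefSeq on GRCm38.p6, are shown because the core of that element, TGCACNC or TGCGCNC on either strand, recurs in them (capitals). The windows run from 250 bases before to 50 bases after the annotated start, at chr8:94178839-94179138 for Mt1 and chr8:94172368-94172667 for Mt2, both on the plus strand.
Mt1: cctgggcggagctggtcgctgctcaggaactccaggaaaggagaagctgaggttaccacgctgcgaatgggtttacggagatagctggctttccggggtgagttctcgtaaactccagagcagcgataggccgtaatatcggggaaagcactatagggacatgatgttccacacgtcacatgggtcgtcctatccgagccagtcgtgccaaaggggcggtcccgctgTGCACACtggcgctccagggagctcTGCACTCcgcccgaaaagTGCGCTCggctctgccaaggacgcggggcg
Mt2: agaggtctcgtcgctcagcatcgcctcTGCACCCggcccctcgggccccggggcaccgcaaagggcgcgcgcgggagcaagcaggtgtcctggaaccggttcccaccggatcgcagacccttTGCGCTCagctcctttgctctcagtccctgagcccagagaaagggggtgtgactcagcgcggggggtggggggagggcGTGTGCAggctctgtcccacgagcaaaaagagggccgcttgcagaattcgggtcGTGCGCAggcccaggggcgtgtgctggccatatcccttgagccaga
The core occurred 3 times in the Mt1 window and 4 times in the Mt2 window. Of 32851 such windows of the same length across the genome, 25.7% held at least 1 core, 1.97% held 3 or more and 0.517% held 4 or more. A match describes the letters and not binding.

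The metallothioneins had the widest spread of the 10 genes between the livers of once-daily water mice. In once-daily livers Mt1 was 22.0, 169, 679.8 and 529 CPM in water mice and 1765, 1807, 376 and 713.5 CPM in NMN mice. Mt2 followed it at 4.15, 32.5, 156 and 50.8 CPM in water mice and 777, 722, 142 and 100.6 CPM in NMN mice. NMN mice 1 and 2 were above every water mouse for both genes, NMN mouse 4 for Mt1 only, and NMN mouse 3 for neither. The differences were 1.73 for Mt1 (SE 1.05, adjusted p = 0.827) and 2.82 for Mt2 (SE 1.21, adjusted p = 0.742). Water mouse 3, highest of its group for both genes, was the water liver that stood apart in acute phase genes. Without that liver the differences were 2.29 for Mt1 (adjusted p = 0.576) and 3.9 for Mt2 (adjusted p = 0.461). The part of the acute phase in the metallothionein values was not tested. The coefficient of variation of Mt1 in the once-daily water livers was higher than that of 99.4% of genes, and that of Mt2 higher than that of 99.8% of genes, among those with a mean of at least 5 CPM.

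In twice-daily livers Mt1 was 139.7, 376 and 45.2 CPM in water mice and 178, 96.9 and 107 CPM in NMN mice (-0.50, SE 0.78, adjusted p = 0.754). Mt2 was 5.08, 74.3 and 5.98 CPM in water mice and 40.3, 15.4 and 19.6 CPM in NMN mice (-0.13, SE 1.196, adjusted p = 0.963). Water mouse 2 was the highest of the 6 for both genes, and every NMN mouse was above the other two water mice for Mt2. Without that mouse the log2 differences were 0.51 for Mt1 and 2.22 for Mt2, neither called, and that of Mt2 was also above 0 without NMN mouse 2 (0.14) or 3 (0.033).

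The kidneys spanned a narrower range, 46.8 to 126.5 CPM of Mt1 and 5.65 to 31.8 CPM of Mt2, inside that of the livers. In twice-daily kidneys Mt1 was 58.5, 69.7 and 54.8 CPM in water mice and 102.7, 77.2 and 105 CPM in NMN mice (0.64, SE 0.13, adjusted p = 0.0736). Mt2 was 6.67, 8.89 and 8.52 CPM in water mice and 16.4, 10.8 and 15.3 CPM in NMN mice (0.83, SE 0.17, adjusted p = 0.0648). For both genes every NMN kidney was above every water kidney, and without NMN mouse 2, the lowest of the NMN group, both were called (0.77, adjusted p = 0.00839, and 0.99, adjusted p = 0.0134). In once-daily kidneys Mt1 was 46.8, 49.5, 49.98 and 64.9 CPM in water mice and 81.3, 48.0, 126.5 and 58.7 CPM in NMN mice, and Mt2 ran from 5.65 to 9.49 CPM and from 7.58 to 31.8 CPM. These groups overlapped (0.57, SE 0.31, adjusted p = 0.646, and 1.03, SE 0.49, adjusted p = 0.599). Without NMN mouse 3, the highest for both, the differences were 0.24 and 0.43 (adjusted p = 0.589 and 0.468). The Mt2 level is uncertain, because 73.5% of its exon bases overlap the gene Gm45774 on the other strand and the counting used no strand.

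**Figure D3:**
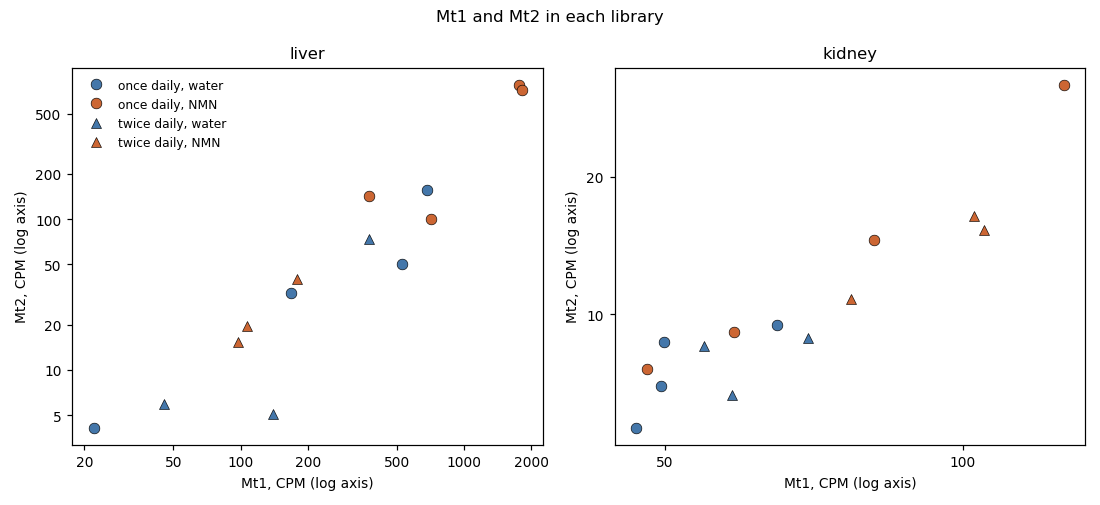
Mt2 against Mt1 in every library, both in CPM on log axes, with liver on the left, kidney on the right, circles for the once-daily and triangles for the twice-daily schedule. The livers span 22.0 to 1807 CPM of Mt1, with 2 once-daily NMN livers at the upper end, and the kidneys span 46.8 to 126.5 CPM.

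Tat encodes tyrosine aminotransferase, a liver enzyme of tyrosine breakdown and a classical glucocorticoid target. In once-daily livers it was 3120 CPM in water mouse 1, 2164, 2052 and 2216 CPM in the other water mice, and 3641, 3791, 1754 and 1930 CPM in NMN mice (0.22, SE 0.25, adjusted p = 0.911). NMN mice 1 and 2 were above and NMN mice 3 and 4 below all water mice. In twice-daily livers it was 1756, 1810 and 1224 CPM in water mice and 1108, 2288 and 1958 CPM in NMN mice, with overlap (0.18, SE 0.23, adjusted p = 0.684), and without NMN mouse 2 the difference was -0.021.

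Errfi1 encodes Mig6, an inhibitor of the EGF receptor. In once-daily livers it was 1326, 1281, 1512 and 1505 CPM in water mice and 1746, 1906, 1691 and 776 CPM in NMN mice. NMN mice 1 to 3 were above all water mice and mouse 4 below them (0.13, SE 0.22, adjusted p = 0.940). In twice-daily livers it was 1083, 534 and 952 CPM in water mice and 859, 1403 and 2196 CPM in NMN mice (0.81, SE 0.38, adjusted p = 0.245). In once-daily kidneys the water mice lay between 382 and 436 CPM and the NMN mice at 912, 424, 303 and 246 CPM, with 1 above, 1 inside and 2 below the water range (0.23, SE 0.42, adjusted p = 0.915). Without NMN mouse 1, the one above, the difference turned to -0.29 (SE 0.15). In twice-daily kidneys all 6 mice lay between 250.3 and 346 CPM (-0.06, SE 0.11, adjusted p = 0.897), and the sign turned without water mouse 2 (0.017) or NMN mouse 1 (0.058).

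Sgk1 encodes a kinase that raises sodium channel activity in the distal nephron and is a target of both the glucocorticoid and the mineralocorticoid receptor. One of its 6 RefSeq promoter windows, at chr10:21993640-21993939 on the plus strand of GRCm38.p6, is shown because it held the only match among the members to a palindromic glucocorticoid response element, AGAACA and TGTTCT with any 3 bases between them (capitals).
Sgk1: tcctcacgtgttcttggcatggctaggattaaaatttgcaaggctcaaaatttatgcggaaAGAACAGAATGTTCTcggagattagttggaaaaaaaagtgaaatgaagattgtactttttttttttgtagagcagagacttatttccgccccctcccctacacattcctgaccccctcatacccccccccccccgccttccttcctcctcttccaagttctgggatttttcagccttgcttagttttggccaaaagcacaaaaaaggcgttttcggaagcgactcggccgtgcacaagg
The element begins 189 bases before the annotated start. It occurred in 3 of the 32851 promoter windows, or 0.00913%, and 9 of the 10 members had a window (17 windows in all). Absence of these exact letters from a window says nothing of the receptor.

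Sgk1 values differed in direction between the organs on the twice-daily schedule. In twice-daily livers it was 22.8, 24.3 and 18.5 CPM in water mice and 9.75, 16.2 and 17.9 CPM in NMN mice. Each NMN liver was below each water liver (-0.56, SE 0.23, adjusted p = 0.169). In twice-daily kidneys it was 36.6, 40.6 and 39.4 CPM in water mice and 36.9, 54.4 and 56.6 CPM in NMN mice (0.35, SE 0.15, adjusted p = 0.437), and without NMN mouse 1 it was called at 0.52 (adjusted p = 0.0109). On the once-daily schedule the livers ran from 18.3 to 39.5 CPM with water and from 11.6 to 32.03 CPM with NMN (-0.07, SE 0.30, adjusted p = 0.978), and the sign turned without water mouse 2 (0.23) or NMN mouse 4 (0.15). The once-daily kidneys ran from 67.9 to 112 CPM with water and from 74.3 to 140.5 CPM with NMN (0.25, SE 0.25, adjusted p = 0.824).

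Some libraries of NMN mice held the lowest value of their group for several members. In once-daily NMN mice, mouse 4 had the lowest value of its group for 7 of the 10 genes in liver and for 6 of the 10 in kidney. Its liver was the library that stood apart, with a hepatocyte marker sum of 99000 CPM. In twice-daily kidneys, NMN mouse 1 was lowest of its group for 8 of the 10 genes, and its proximal tubule marker sum of 4278 CPM was the lowest of the 6. The 10 include Tat, which was a trace in kidney. The share of all genes for which these libraries were lowest was not counted. Whether these counts are particular to the members is therefore not known. The part of these marker levels and library properties in the results was not tested.

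Whether the NMN effect differed between the schedules or organs was tested as an interaction. No member was called by edgeR in the livers between schedules or in the kidneys, against 0.0746% and 0.00625% of all genes. In the livers 0 members had an unadjusted p under 0.05 against 8.6% of all genes and DESeq2 called 0 against 0.798%, and in the kidneys the numbers were 1 against 4.62% and 0 against 0.116%. The 1 member was Tat, for which all twice-daily water kidneys held 0 counts, so no fold is given. For Fkbp5 the NMN effect on the twice-daily minus that on the once-daily schedule was -0.57 in liver (SE 0.45, adjusted p = 0.793) and -0.56 in kidney (SE 0.40, adjusted p = 0.999). Between the organs, no member was called by edgeR on the once-daily schedule (against 0% of all genes), with 0 at an unadjusted p under 0.05 against 5.79% and 0 in DESeq2 against 0.179%. On the twice-daily schedule edgeR also called 0 members against 2.65% of all genes, 1 had an unadjusted p under 0.05 against 19.4%, and DESeq2 called 1 against 9.16%. The 1 member was Sgk1, whose NMN effect in liver minus that in kidney was -0.92 (SE 0.28, adjusted p = 0.0875 in edgeR and 0.0327 in DESeq2), and -0.93 with the same-numbered liver and kidney libraries paired as a block, where it was called (adjusted p = 0.036). For Fkbp5 the liver effect exceeded the kidney effect by 0.50 (SE 0.32, adjusted p = 0.963) and 0.47 (SE 0.52, adjusted p = 0.656) on the 2 schedules.

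Water mice of the schedules also differed in these genes. In the kidneys 5 members were lower in twice-daily than in once-daily water mice, and 18.3% of all genes were called in either direction. Tsc22d3 was lower by a log2 difference of -1.64 (SE 0.18, adjusted p = 0.000178), Sgk1 by -1.14 (SE 0.16, adjusted p = 0.000535), Klf9 by -0.58 (SE 0.12, adjusted p = 0.00343) and Errfi1 by -0.36 (SE 0.09, adjusted p = 0.0101). Tat, a trace in kidney, was the fifth, and every twice-daily kidney was below every once-daily kidney for all 5, against 15.1% of all genes. The Errfi1 call was lost without twice-daily water mouse 1 (adjusted p = 0.0503) or 3 (adjusted p = 0.0765). In the livers edgeR called 0 members against 4.44% of all genes, 4 had an unadjusted p under 0.05 against 18.8%, and DESeq2 called 4 against 7.49%. There 8 of the 10 were lower in twice-daily water mice, and Tsc22d3, Tat and Errfi1 were wholly below, 3 of 10 against 8.65% of all genes. Their differences were -1.76 (SE 0.54, adjusted p = 0.151), -0.61 (SE 0.18, adjusted p = 0.0736) and -0.74 (SE 0.21, adjusted p = 0.0747), and Klf9 gave -0.85 (SE 0.26, adjusted p = 0.103). Errfi1 was called without twice-daily liver 1 (-0.92, adjusted p = 0.0484) and Klf9 without twice-daily liver 3 (-1.24, adjusted p = 0.0127).

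Further properties of the kidney libraries moved with the schedule. Mitochondrially encoded genes took 8.92 to 10.6% of the counts of once-daily kidneys and 19.8 to 21.6% of twice-daily kidneys. The adipocyte markers Adipoq, Plin1, Cfd and Lep, led by Cfd, summed to between 2.36 and 38.0 CPM in once-daily kidneys and between 112 and 213 CPM in twice-daily kidneys. Within once-daily kidneys the adipocyte markers summed to 12.7, 11.8, 9.31 and 37.4 CPM in water mice and 2.36, 3.08, 38.0 and 2.96 CPM in NMN mice. NMN mouse 3, at 38.0 CPM, was also the kidney with the highest Mt1 and Mt2. The part of these properties in the differences between water mice or with NMN was not tested.

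Tat in kidney was a trace. Once-daily water kidneys held 1.16, 1.28, 1.33 and 1.46 CPM and NMN kidneys 1.89, 1.72, 1.41 and 1.53 CPM, whereas twice-daily water kidneys held 0, 0 and 0 CPM and NMN kidneys 0, 0.170 and 0.0465 CPM. Against a floor of 3 counts over the group of twice-daily water kidneys, 0.0447 CPM, the once-daily water kidneys were at least 29.2-fold higher and the twice-daily water livers at least 35700-fold higher. Of the 4 hepatocyte markers, 3 had shares of the liver level that differed between the schedules as Tat did, and Ttr did not. In once-daily water kidneys Tat stood at 0.0547% of its liver level, Alb at 0.0593%, Apoa1 at 0.0512%, Cps1 at 0.0476% and Ttr at 0.835%. In twice-daily water kidneys Alb stood at 0.00472%, Apoa1 at 0.00561%, Cps1 at 0.00115% and Ttr at 0.666%. Taking the Alb share of the liver level gives 1.42 CPM for Tat in once-daily water kidneys, beside 1.31 CPM measured, and 1.84 CPM beside 1.64 CPM in once-daily NMN kidneys. In twice-daily kidneys it gives 0.0754 CPM beside 0 CPM with water and 0.141 CPM beside 0.0722 CPM with NMN. The source of the Tat reads in kidney was not tested. For the other 9 members the Alb share of the liver level came to at most 1.83% of the kidney level, for Mt2 in once-daily NMN mice. Kidney transcripts were likewise found in the livers of once-daily water mice, at 0.251 to 0.356% of their kidney level for Slc34a1, Umod, Lrp2 and Slc12a1. In the livers of twice-daily water mice the same genes stood at 0.0172 to 0.0702% of their kidney level.

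**Figure D4:**
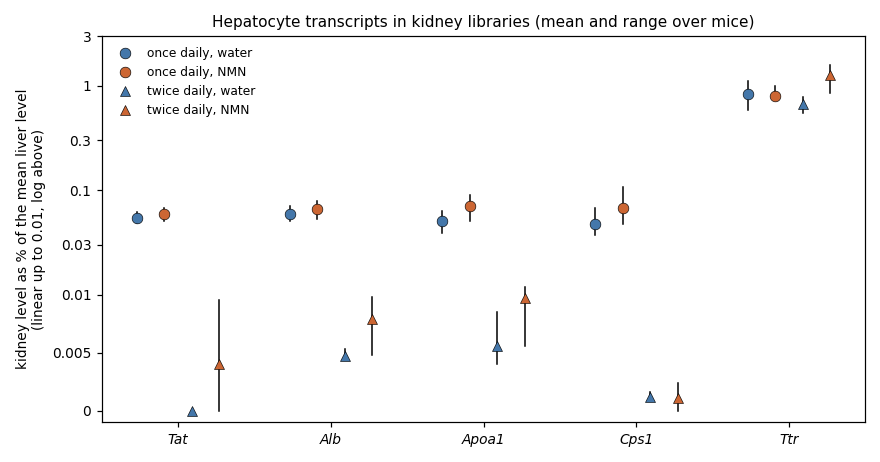
Kidney level as a percent of the group's mean liver level for Tat and for the hepatocyte markers Alb, Apoa1, Cps1 and Ttr, by schedule and treatment, with points for means, lines for the lowest to highest kidney, and an axis that is linear up to 0.01% and logarithmic above. Tat, Alb, Apoa1 and Cps1 lie between 0.0369 and 0.107% on the once-daily and between 0 and 0.0117% on the twice-daily schedule, whereas Ttr lies between 0.554 and 1.59% on both.

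The members varied together between mice in part. Deviations of log2(CPM + 1) from the group mean were correlated over 14 libraries, 28 relations in all, each with a permutation test. Between organs, libraries of the same number and group were paired, though the labels do not say that they are the same mouse. Over genes with a mean of at least 5 CPM, each of the 7 water pairs deviated together most with its own number (r from 0.126 to 0.377), but only 3 of the 7 NMN pairs did (r from -0.043 to 0.252 over the 7). Tsc22d3 in liver and kidney had r = 0.834 and rho = 0.723 (permutation p = 0.00042, adjusted p = 0.0118), Zbtb16 r = 0.789 and rho = 0.807 (permutation p = 0.00156, adjusted p = 0.0177), and Klf9 r = 0.693 and rho = 0.758 (permutation p = 0.0065, adjusted p = 0.0364). Within kidney, Fkbp5 and Tsc22d3 had r = 0.791 and rho = 0.780 (permutation p = 0.0019, adjusted p = 0.0177), and Fkbp5 and Sgk1 r = 0.702 and rho = 0.732 (permutation p = 0.00454, adjusted p = 0.0318). In all, 25 of the 28 relations were positive and 5 had an adjusted p under 0.05. Among 8545 genes with a mean of at least 5 CPM in each organ the median r between organs was 0.193 and 69.9% of values were positive, and 0.667, 1.38 and 4.21% of genes had an r at or above those of Tsc22d3, Zbtb16 and Klf9. The median r of all genes with Fkbp5 was 0.12 in liver and 0.0512 in kidney, with 60.4 and 55.8% positive, and in kidney 0.233 and 0.981% of genes were at or above Tsc22d3 and Sgk1. Deviations within a group sum to 0, so these p values are somewhat too small.

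The 5 relations kept their sign in smaller sets, in which r was lower for some and higher for others. Without the 2 libraries farthest from the median of the x measure, r was 0.638 for Tsc22d3, 0.737 for Zbtb16 and 0.604 for Klf9 between organs, and 0.666 and 0.593 for Fkbp5 with Tsc22d3 and Sgk1 in kidney. On the once-daily schedule the same 5 gave r = 0.884, 0.801, 0.692, 0.718 and 0.787, and on the twice-daily schedule r = 0.785, 0.776, 0.927, 0.854 and 0.765. In these smaller sets none had an adjusted p under 0.05 for r, and 1 had for rho, Zbtb16 without the 2 farthest libraries (rho = 0.825, adjusted p = 0.042 by permutation). Fkbp5 between the organs had r = 0.269 (adjusted p = 0.472 by permutation), with 41.1% of genes at or above it, and r = 0.625 (adjusted p = 0.142 by permutation) without the 2 farthest libraries, once-daily water 1 and twice-daily water 2. In liver its relation to Tsc22d3 was r = 0.12 (adjusted p = 0.794 by permutation), and 0.48 without the same 2 (adjusted p = 0.247 by permutation). A split by treatment, added after seeing the data, gave for Fkbp5 between organs r = -0.485 over the 7 water pairs (adjusted p = 0.447 by exact permutation) and r = 0.924 over the 7 NMN pairs (adjusted p = 0.0333 by exact permutation). Among the 8545 genes the median r between organs was 0.303 over the water pairs, with 70.9% positive. Over the NMN pairs that median was 0.0981, with 57.6% positive. The 5 relations, in the order above, had r = 0.525, 0.695, 0.76, 0.347 and 0.476 over the water libraries and 0.97, 0.832, 0.683, 0.945 and 0.807 over the NMN libraries. No relation had an adjusted p under 0.05 by r over the water libraries, and over the NMN libraries 4 had by r and 0 by rho, namely Fkbp5 and Tsc22d3 in kidney, which is among the 5, and Fkbp5, Dusp1 and Tat between organs. Tat in kidney was the trace described above, and the Alb share of the liver level came to 112% of its kidney level in once-daily NMN mice. Not all NMN pairs deviated together most with their own number. With so few libraries, deviations that sum to 0 within a group also make these p values too small. Whether the treatments differ in these relations was not tested. Across 9369 genes of the liver with a mean of at least 5 CPM, the deviations most like those of Fkbp5 over 14 libraries were those of Cdc42ep1 (r = 0.965), Anapc7 (r = 0.936) and Map3k11 (r = 0.935). Across 10293 genes of the kidney they were those of Rasl12 (r = 0.926), Ubap2 (r = 0.906) and Cdr2 (r = 0.898), with Tsc22d3 at rank 24 and Sgk1 at rank 101. Mt1 (r = -0.313) and Mt2 (r = -0.406) were at ranks 8918 and 9499 in kidney. The ranks of the members in liver ran from 737, for Sgk1 (r = 0.593), to 6503, for Zbtb16 (r = -0.107).

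**Figure D5:**
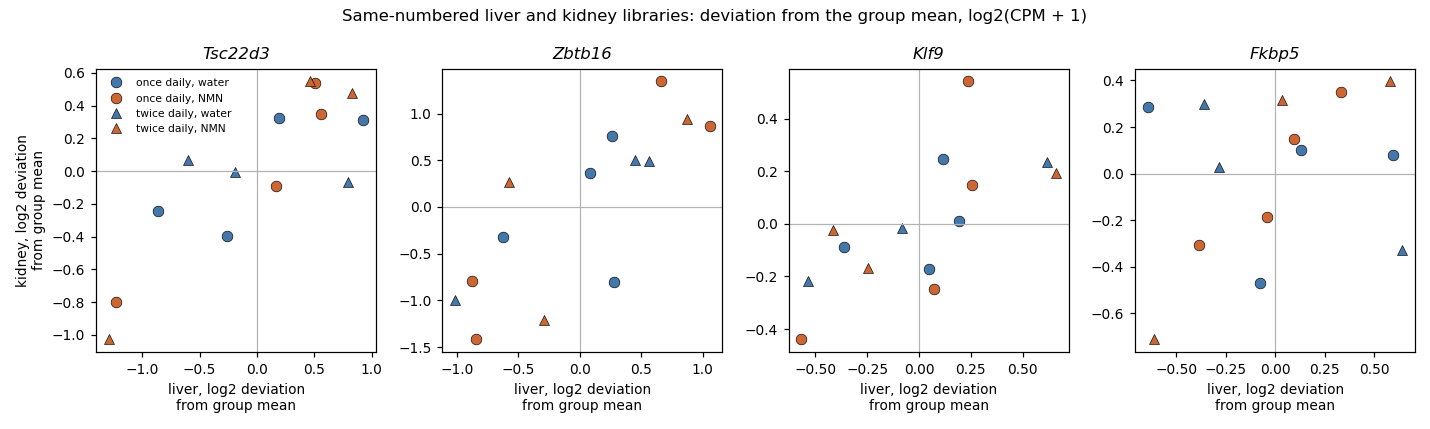
Within-group deviation of log2(CPM + 1) in kidney against liver for Tsc22d3, Zbtb16, Klf9 and Fkbp5, with 1 point per pair of same-numbered libraries. The points of Tsc22d3, Zbtb16 and Klf9 rise together (r = 0.834, 0.789 and 0.693), and those of Fkbp5 have r = 0.269, or 0.625 without the 2 libraries farthest from the liver median, when Tsc22d3, Zbtb16 and Klf9 have 0.638, 0.737 and 0.604.

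The rest of the pathway was counted from lists of other genes, also chosen with earlier results of these data known. Of 24 other glucocorticoid targets, 19 of 23 tested were higher with NMN in once-daily livers, 15 of 23 in twice-daily livers, 24 of 24 in once-daily kidneys and 22 of 23 in twice-daily kidneys, with medians of 0.40, 0.80, 0.50 and 0.44. In this order 3, 10, 6 and 7 had an unadjusted p under 0.05 and DESeq2 called 0, 7, 2 and 3. Of all genes, 49.5, 50.4, 50.3 and 50.8% were higher with NMN. An unadjusted p under 0.05 was found for 6.86, 24.6, 8.94 and 11.1% of all genes, and DESeq2 called 0.76, 12.4, 1.08 and 1.59%. Genes can vary together between mice, so the genes of a list are not independent of each other. In twice-daily livers edgeR called 2 of the 23, or 8.7%, near the 7.08% of all genes, Nfkbia, the inhibitor of NF-kB, from 34.3 ± 7.43 to 79.2 ± 9.74 CPM (SD, n = 3, log2 1.23, SE 0.19, adjusted p = 0.00605), and Klf15, from 219 ± 32.7 to 342 ± 58.8 CPM (SD, n = 3, log2 0.67, SE 0.16, adjusted p = 0.0346). In once-daily kidneys Igfbp1, a binding protein of insulin-like growth factors, was called, 1 of 24 against 0.12% of all genes, from 4.04 ± 1.22 to 10.9 ± 3.79 CPM (SD, n = 4, log2 1.44, SE 0.26, adjusted p = 0.0479), and Pck1, of glucose production, had 0.67 (SE 0.14, adjusted p = 0.0852). No gene of the list was called by edgeR in once-daily livers or twice-daily kidneys. Of 15 tested genes of the receptor and steroid handling, 7, 12, 6 and 8 were higher in the same order, 1, 5, 4 and 2 had an unadjusted p under 0.05, DESeq2 called 0, 1, 0 and 0, and edgeR called 1, the corepressor gene Ncor1 in twice-daily livers (0.90, SE 0.21, adjusted p = 0.0312), which is 6.67% of the 15 against 7.08% of all genes. Nr3c1 had -0.24 in once-daily kidneys (SE 0.10, adjusted p = 0.484).

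Lists of genes that answer other signals were counted beside these, to be read against the same shares of all genes. These were 49.5, 50.4, 50.3 and 50.8% higher with NMN, 6.86, 24.6, 8.94 and 11.1% at an unadjusted p under 0.05, and 0.76, 12.4, 1.08 and 1.59% in DESeq2. Immediate early genes, which answer growth factors and stress within minutes, were higher in 8 of 10, 8 of 10, 11 of 11 and 7 of 11, with none called by edgeR (1, 0, 2 and 1 at an unadjusted p under 0.05, and 1, 0, 1 and 0 in DESeq2), and Junb in once-daily livers had 1.28 (SE 0.20, adjusted p = 0.0659). Metal response genes other than Mt1 and Mt2 were higher in 2 of 4, 3 of 5, 4 of 5 and 1 of 4, with none called by edgeR (0, 1, 1 and 1 at an unadjusted p under 0.05, and 0, 1, 1 and 0 in DESeq2). Clock genes were higher in 4, 6, 10 and 8 of 12, with none called by edgeR (1, 2, 3 and 0 at an unadjusted p under 0.05, and 0, 1, 0 and 0 in DESeq2), and 1 of them, Per1, was also among the other glucocorticoid targets. Acute phase genes were higher in 4 of 8, 4 of 8, 1 of 5 and 2 of 3, with 0, 4, 0 and 1 at an unadjusted p under 0.05 and 0, 4, 0 and 0 called in DESeq2. In edgeR Orm2, of orosomucoid 2, was called in twice-daily livers (1.28, SE 0.27, adjusted p = 0.0239), 1 of 8 against 7.08% of all genes. There 4 of the 8 had every NMN mouse below every water mouse, against 16% of all genes. Among them, named after their values were seen, Saa1 was 1469, 409 and 844 CPM in water mice and 295, 27.6 and 104 CPM in NMN mice, and Lcn2 245, 75.1 and 57.7 CPM and 33.2, 10.3 and 15.4 CPM. The part of the acute phase in the members' values was not tested.

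Markers of other cells were counted in the same fits, against the same shares. Of the 4 hepatocyte markers 1 was higher with NMN in once-daily and 0 in twice-daily livers, 1 and 2 had an unadjusted p under 0.05, and DESeq2 called 0 and 1. In edgeR 1 was called, Ttr, which fell by 0.97 on the log2 scale in twice-daily livers (SE 0.13, adjusted p = 0.00227), and Alb had -0.36 there (SE 0.11, adjusted p = 0.075). In the same livers Alas2, 1 of 3 erythroid markers, fell by 1.72 (SE 0.20, adjusted p = 0.00121), while the globin genes Hba-a1 and Hbb-bs had -0.0086 (SE 0.81, adjusted p = 0.996) and 0.41 (SE 0.93, adjusted p = 0.840). The erythroid markers in kidney summed to 80.6, 18.1, 11.6 and 59.8 CPM in once-daily water mice and 85.5, 51.7, 151 and 7.07 CPM in NMN mice, and to 102, 4.51 and 72.1 CPM in twice-daily water mice and 9.30, 55.9 and 13.6 CPM in NMN mice. They were higher with NMN in 3 of 3 on the once-daily and 0 of 3 on the twice-daily schedule, none called by either tool and 0 at an unadjusted p under 0.05. In once-daily kidneys water mice 1 and 4 had the higher sums and the higher Dusp1, and NMN mouse 3 had the highest sum, Mt1 and Mt2. Adipocyte markers in kidney were higher with NMN in 0 of 3 on the once-daily and 3 of 4 on the twice-daily schedule, none called by edgeR (0 and 1 at an unadjusted p under 0.05, and 0 and 1 in DESeq2). The 4 proximal tubule markers were all lower with NMN in kidney on both schedules and none was called, with 2 and 3 at an unadjusted p under 0.05 in edgeR and 1 and 2 called in DESeq2. Of 4 distal nephron markers, 4 were higher in once-daily and 3 in twice-daily kidneys, none called by edgeR (2 and 0 at an unadjusted p under 0.05, and 1 and 0 in DESeq2). Leukocyte markers were higher in 3 of 4 in kidneys on both schedules and in 0 of 4 and 1 of 5 in livers, none called by either tool and 0 at an unadjusted p under 0.05 in edgeR. Of the 10 adrenal markers, 6 to 9 were at 0 in each library, their sum was between 1.14 and 6.25 CPM, and Star led it in every library but the liver of once-daily water mouse 1, where Star and Chga both had 12 counts. The pancreas markers summed to at most 2.27 CPM and the adipocyte markers to at most 2.81 CPM in liver. In twice-daily livers the proximal tubule markers summed to 11.7 CPM in NMN mouse 1 and to at most 4.34 CPM in the other mice. The part of these cells in the members' values was not tested.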

How the data were processed

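PolyA RNA of 14 livers and 14 kidneys was sequenced. Per the study's methods and the labels, reads were aligned with STAR and counted with HTSeq in strict intersection mode without strand. The deposited files hold whole-number counts per Ensembl gene and library. The genome build could not be matched to one in the sources used here, so no gene coordinates are taken from it. Of the identifiers, 53229 matched GENCODE mouse gene names with version, 1180 without version and 37 did not match. Rows of unassigned reads, 18.6 to 29.3% of each library's records, stayed out of totals and tests. Library totals ran from 12688324 to 33872983, so low genes carry more counting error. No libraries within a group were identical.

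Counts were fitted in R 4.3.3 with edgeR 4.0.16 (TMM scaling, filterByExpr, robust quasi-likelihood F test), each comparison with its own groups and interactions with all groups involved. p values were adjusted by Benjamini-Hochberg over all genes tested, and a gene was called at an adjusted p under 0.05. SE was obtained from each log2 fold change and its F statistic. CPM used TMM over all 28 libraries, and RPKM the summed exon length. DESeq2 1.42.0, other scalings, no low-count filter, no robust option, a replicate block, all libraries of an organ in 1 fit, a stricter threshold and each library left out were alternatives. All 10 members were named, and of each other list up to 3 genes per comparison by smallest p. The members and lists were chosen with earlier results of these data known. The p values measure the spread between these mice.

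Same-numbered liver and kidney libraries of water mice deviated together (r from 0.126 to 0.377, each highest with its own number). The main comparisons of the organs and the organ interactions did not pair them, and a replicate block did so as an alternative. The pairing comes from the data, since the labels do not state it, and 4 of the 7 NMN pairs (r from -0.043 to 0.057) were not highest with their own number. Promoters came from RefSeq tables. The code was tested on simulated data with 200 genes changed 4-fold. In the comparisons of NMN with water, 4.4 to 9.52% of the edgeR calls were false. Of the DESeq2 calls, 10.5 to 14% were false.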

Additional observations from a re-analysis of the deposited data

Results flagged for a closer look

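Of 40 groups of 4 livers or kidneys checked, 1 per gene, organ and treatment of the once-daily schedule, 1 held a mouse far from the rest. Tat in the livers of once-daily water mice was 3120 CPM in mouse 1, and its gap to the nearest of the other 3 mice (2052 to 2216 CPM) was 0.847 of the whole range, above the 95% critical value of Dixon's test. Chance alone sets apart about 1 in 20 such groups.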

How the results depend on the processing

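In the comparisons of NMN with water in once-daily livers, twice-daily livers, once-daily kidneys and twice-daily kidneys, edgeR called 0 of the 10 genes. The number became 1, 2, 1 and 3 with no filter on low counts (Fkbp5; Fkbp5 and Zbtb16; Fkbp5; Mt1, Mt2 and Sgk1) and 2, 3, 2 and 2 in DESeq2 (Fkbp5 and Zbtb16; those and Klf9; Fkbp5 and Zbtb16; Mt1 and Mt2). Without the robust option Zbtb16, 1 gene, was called in twice-daily livers, with 819 of all genes called. The other scalings, all 14 libraries of an organ in 1 fit and the stricter threshold left 0. All genes called went from 2, 883, 18 and 61 to 44, 1785, 269 and 514 with no filter and to 89, 1487, 162 and 243 in DESeq2. The stricter threshold called 0, 135, 2 and 3, not robust fits called 5 in once-daily kidneys, and fits of all 14 libraries 6 in once-daily livers and 35 in twice-daily kidneys.

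Same-numbered NMN and water libraries did not deviate together in every pair (r from -0.186 to 0.361), so the numbers were not taken as pairs. With the number as a replicate block, 1, 2, 1 and 0 members were called (Fkbp5; Fkbp5 and Klf9; Fkbp5; none), and 16, 1153, 75 and 92 of all genes, and Mt2 in twice-daily livers turned from -0.13 to 0.89. In the organ difference on the twice-daily schedule 1 member, Sgk1, was called with the block (247 of all genes, against 419), 1 in DESeq2 (1308 genes) and 6 with no filter (1307 genes). The schedule difference in kidney gave 2 members with no filter (106 genes, against 1, and 11 in DESeq2), and that in liver 71 genes with no filter and 107 in DESeq2, against 10. The organ difference on the once-daily schedule gave 9 and 28 genes, against 0. Between water livers of the schedules 4 members were called with no filter, 1 without the robust option and 4 in DESeq2 (1236, 515 and 938 of all genes in this order, against 557). Mt1 and Mt2 between the organs of once-daily water mice were not called with no filter (adjusted p = 0.0706 and 0.0571), and Fkbp5 between the organs of twice-daily water mice was called with upper quartile scaling (-0.75) and in DESeq2 (-0.57).

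With each library left out in turn, the number of members called ranged from 0 to 1 in once-daily livers, 0 to 0 in twice-daily livers, 0 to 1 in once-daily kidneys and 0 to 2 in twice-daily kidneys. It ranged from 4 to 6 between the organs on each schedule (9075 to 10275 of all genes on the once-daily and 9548 to 10945 on the twice-daily schedule). Between the schedules it ranged from 0 to 1 in water livers (310 to 657 of all genes) and from 4 to 5 in water kidneys (1632 to 2880 of all genes). Differences that turned sign ran, in once-daily livers, from -0.10 to 0.52 for Tsc22d3 and -0.23 to 0.23 for Sgk1, and in twice-daily livers from -0.036 to 0.88 for Tsc22d3, -1.38 to 0.042 for Dusp1, -0.96 to 0.51 for Mt1, -0.70 to 2.22 for Mt2 and -0.021 to 0.41 for Tat. In kidneys they ran from -0.29 to 0.45 for Errfi1 on the once-daily schedule, and from -0.13 to 0.27 for Dusp1 and -0.13 to 0.058 for Errfi1 on the twice-daily schedule. Fkbp5 ran from -0.31 to 0.10 between the organs of once-daily water mice and from -0.32 to 0.0017 between water kidneys of the schedules. None of these was called. All genes called with 1 library left out ranged from 0 to 18, 211 to 1308, 5 to 67 and 3 to 191 in the comparisons with water. For the schedule difference of the NMN effect they ranged from 7 to 25 in liver and from 0 to 1 in kidney. For the organ difference they ranged from 0 to 9 on the once-daily and from 118 to 1347 on the twice-daily schedule. No member was called in any of these interaction fits. The number of relations between mice with an adjusted p under 0.05 by r fell from 5 to 0 without the 2 farthest libraries (1 by rho), to 0 within the once-daily and to 0 within the twice-daily libraries. Splits by treatment, added after seeing the data, gave 0 over the water and 4 over the NMN libraries. Of 554 single-gene results under the other settings 512 kept their direction and side of the threshold, as did 485 of 533 with a library left out. With 3 or 4 mice a group, the metallothionein differences in the livers carried an SE of up to 1.21 on the log2 scale, so differences of that size were not detectable for them. The cause of these changes was not tested.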
